A study of Mus musculus with 4 samples.

Results

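The genes described here are 9 genes of lipid handling and selenium transport, *Apoe*, *Selenop*, *Lpl*, *Fabp5*, *Plin2*, *Abca1*, *Abcg1*, *Npc2* and *Lipa*, out of 21739 gene symbols listed in the 4 libraries. They were chosen by name as genes that macrophages use, and all 9 were found in every library. Each was followed as CPM (the UMIs of the gene scaled to one fixed UMI total per class and library) and as the share of cells with at least 1 UMI, in macrophages, monocytes and other cell classes. None of the 9 genes was used to place a cell in a class; the clusters described further on were built on variable genes of all kinds.

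The samples were periwound skin of 6-week-old C57/BL6j mice, taken 7 days after an 8-mm full-thickness punch wound of the shoulder midline. The hucMSC-Exosomes group (libraries titled hucMSC-Exo, replicates 1 and 2) received 100 µg of exosomes from human umbilical cord mesenchymal stem cells under the skin at 4 sites around the wound every 48 h, and the control group (Control, replicates 1 and 2) received the same volume of PBS. Each library came from 1 mouse, so each group holds 2 mice. Both groups carried the wound, and no unwounded skin is compared here, nor is any genetic model involved. The groups rest on the sample titles. The letters in the file names pair the libraries another way, and the labels give parts of the gut as tissue but skin cells as cell type, so every direction between the groups depends on the titles.

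Macrophages of a healing wound take up cell debris and the lipid in it, hydrolyse it in the lysosome, and store the lipid in droplets or export it. Apolipoprotein E and the transporters of the ABC family carry cholesterol out of the cell, a programme driven by the liver X receptors, which sense oxysterols. Selenoprotein P is a secreted protein that carries selenium between tissues, and macrophages of several tissues are known to transcribe it.

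The libraries held 1098 (Control 1), 2422 (Control 2), 1539 (hucMSC-Exo 1) and 2119 (hucMSC-Exo 2) cells, and 952, 2074, 1416 and 2001 of these passed the study's limits (200 to 3000 genes per cell, mitochondrial share up to 10%), with a median of 3747 to 4393 UMIs per kept cell. The study states larger numbers of cells for these mice than the barcodes in the files. Cells were placed in classes by fixed marker genes. The C1q macrophage class (*C1qa*, *C1qb*, *C1qc*, *Mrc1*, *Cd163*, *Folr2*, *Adgre1*, *Ms4a7*) held 157, 380, 172 and 210 cells, in the order of the libraries above, which is used throughout. Monocytes (*Ly6c2*, *Chil3*, *Plac8*, *Ccr2* and others) numbered 55, 160, 65 and 200, and the medians of these 2 classes were 7069 and 6754 UMIs. The summed C1q list was at 7723 to 11877 CPM in C1q macrophages and 255 to 836 CPM in monocytes, and the summed monocyte list at 406 to 869 and 4532 to 7381 CPM. In all, 105 of the 919 C1q macrophages and 107 of the 480 monocytes lay near the limit of their gate. In the clusters described further on, 65.5% of C1q macrophages and 46.7% of monocytes lay in clusters named for their class. Cluster 2, named for C1q macrophages, held 144 of the monocytes, and cluster 5, which was given no name, held 308 C1q macrophages. The gate and the clusters thus divided these cells differently. Osteoclast-like macrophages (*Ctsk*, *Acp5*, *Atp6v0d2*, *Dcstamp*, *Ocstamp*, *Mmp12*) numbered 44 with the limit of 3000 genes and 185 without it. Their comparisons with C1q macrophages and with monocytes are therefore given both ways, and their levels with the limit only for some genes. The caller Scrublet, set to expect 6%, marked 30 of 6443 cells as doublets, a share of 0.466%, and doublets were not removed. The study reports a doublet filter of its own. Whether the deposited cells had passed it, or the caller missed doublets, was not tested. No pair of libraries shared more than 2 barcodes, and all pairs together shared 6.

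Selenoprotein P is set apart from the other selenoproteins by its coding sequence, which is shown because the gene is the selenium carrier of the set. The selenocysteine codon is an in-frame TGA, in capitals below. The annotated coding sequence of *Selenop* (GENCODE M21, mm10; transcript Selenop-201 on chromosome 15, plus strand) has 1140 bases and 380 codons with 10 such codons, the first at codon 59 and the last at codon 377. Codons 314 to 380, the end of its last coding exon at chr15:3279507-3279707 (plus strand), hold 7 of the 10.
Selenop, codons 314 to 380: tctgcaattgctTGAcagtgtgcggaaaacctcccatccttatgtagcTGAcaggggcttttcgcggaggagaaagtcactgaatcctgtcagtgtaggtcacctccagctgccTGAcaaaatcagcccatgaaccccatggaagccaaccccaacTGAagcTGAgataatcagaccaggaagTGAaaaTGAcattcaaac
Of the other 23 annotated mouse selenoprotein transcripts, each has 1 in-frame TGA except *Dio2*, which has 2. The 4 sites below are set side by side, each with 8 codons on either side of the TGA. They are the first selenocysteine codon of *Selenop* (chr15:3274824-3274874, plus strand) and those of *Gpx1* (chr9:108339427-108339477, plus strand) and *Gpx4* (chr10:80054713-80054763, plus strand), which encode peroxide-reducing glutathione peroxidases, and of *Selenow* (chromosome 7, minus strand; codons 5 to 21), which encodes a small selenoprotein.
Selenop, first site: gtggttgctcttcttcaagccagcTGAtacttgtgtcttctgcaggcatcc
Gpx1: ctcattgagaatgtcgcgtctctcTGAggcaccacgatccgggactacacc
Gpx4: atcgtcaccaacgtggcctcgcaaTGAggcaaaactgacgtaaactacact
Selenow: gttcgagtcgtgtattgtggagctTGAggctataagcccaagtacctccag

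Of the 9 genes, 6 had an entry among the RefSeq promoters (GRCm38.p6), the exceptions being *Lpl*, *Fabp5* and *Abcg1*. Both strands of the 250 bases before each start were searched for 3 motifs, an E-box (CACGTG), the liver X receptor element DR4 and a PU.1 site (GAGGAAGT), PU.1 being a transcription factor of myeloid cells. The *Abca1* promoter (chr4:53159896-53160145, minus strand) held the E-box, 147 bases before the start, and the DR4, 67 bases before the start and on the opposite strand, both in capitals.
Abca1 promoter: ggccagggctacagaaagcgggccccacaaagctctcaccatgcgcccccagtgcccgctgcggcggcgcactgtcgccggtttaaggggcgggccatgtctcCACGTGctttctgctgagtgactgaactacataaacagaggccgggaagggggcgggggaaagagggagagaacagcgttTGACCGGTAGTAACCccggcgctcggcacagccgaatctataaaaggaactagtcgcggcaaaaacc
Of 32851 RefSeq promoters, 6.02% held the E-box and 0.0122%, or 4 promoters, held the DR4 spelling. The DR4 was searched in 1 fixed spelling, that of the capitals apart from its 4 middle bases, and not as a family of elements. Because these are the letters of the *Abca1* site, the match there was given by their choice. The count of 4 covers this spelling only. The *Selenop* promoter (chr15:3270517-3270766, plus strand) held the PU.1 letters on the opposite strand, 181 bases before the start, as did 2.44% of all promoters.
Selenop promoter: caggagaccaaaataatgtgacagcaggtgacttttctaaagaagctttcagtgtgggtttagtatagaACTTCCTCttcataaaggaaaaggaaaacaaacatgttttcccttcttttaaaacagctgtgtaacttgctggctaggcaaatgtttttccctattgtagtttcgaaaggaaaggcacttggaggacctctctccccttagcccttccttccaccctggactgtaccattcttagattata
The other 4 promoters held none of the 3 motifs in these spellings, and other spellings of the DR4 were not searched. A match describes the sequence and says nothing about binding.

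*Apoe* (chr7:19696109-19699188, minus strand) encodes apolipoprotein E, the secreted carrier of cholesterol and other lipids. Its level in C1q macrophages was 19643, 12552, 10509 and 15616 CPM, against 2641, 1684, 2772 and 2188 CPM in monocytes and 884 CPM or less in neutrophils. The 3 ranges did not overlap. Without the gene limit neutrophils of Control 1 held 7294 CPM, with 51.5% of the UMIs in 1 of 48 cells, above its monocytes at 2466 CPM, and the other libraries held 599 to 1097 CPM. C1q macrophages were 3.79 to 7.45 times monocytes within each library. In T cells *Apoe* was at 216, 98.9, 262 and 162 CPM, and natural killer (NK) cells and dendritic cells overlapped that range. Of all *Apoe* UMIs in the kept cells, 82.3% were in C1q macrophages.

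Nearly every C1q macrophage carried *Apoe*. The share of cells with a UMI was 96.8% (exact 95% interval 92.7 to 99.0) in Control 1 and reached 98.8% (95.9 to 99.9) in hucMSC-Exo 1, and with each cell thinned to 1000 UMIs it was 91.6 to 95.1%. T cells, which are not known as a source of this mRNA and held the summed C1q list at 6.03 to 13.8 CPM, had a UMI in 32.4 to 60.5% of cells at a median of 3975 UMIs per cell, and 9.10 to 24.9% after thinning. That range stands here as a background level, and whether it came from free RNA, doublets or the T cells themselves was not tested. C1q macrophages had a median of 7069 UMIs per cell, and the intervals cover counting error only.

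*Selenop* (chr15:3268547-3280508, plus strand), the selenium carrier shown above, was at 1730, 2035, 1159 and 2376 CPM in C1q macrophages. Monocytes held 221, 184, 55.8 and 239 CPM, T cells 30.1, 62.0, 35.6 and 81.4 CPM, and dendritic cells a mean of 17.6 CPM. C1q macrophages stood above every other class in all 4 libraries, with hucMSC-Exo 1 lowest in both C1q macrophages and monocytes. They were 7.82 to 20.8 times monocytes, least in Control 1 and most in hucMSC-Exo 1, and they held 86.7% of the *Selenop* UMIs. A UMI was found in 75.6 to 88.7% of C1q macrophages (45.6 to 69.2% thinned), against 8.79 to 24.7% of T cells (2.21 to 7.95% thinned). The *Selenop* of T cells was uneven, with 83.4 to 137 CPM in cluster 1 and 101 to 181 CPM in cluster 12 against 0 to 26.9 CPM in clusters 3 and 6, so the T cell share is not a flat background for this gene.

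*Lpl* (chr8:68880491-68907448, plus strand) encodes lipoprotein lipase, which releases fatty acids from triglyceride-rich lipoproteins. It was at 294, 151, 144 and 228 CPM in C1q macrophages and at 35.5, 19.3, 18.6 and 26.3 CPM in monocytes, where these values rest on 13, 21, 7 and 33 UMIs. Of the 21 monocyte UMIs of Control 2, 38.1% came from 1 cell. The C1q to monocyte ratio was 7.74 to 8.64 in the 4 libraries, and the 2 ranges did not overlap. T cells held 1.10 to 2.51 CPM, and none of the 121 NK cells had an *Lpl* UMI, which allows up to 2.48% of cells with a UMI and does not limit the share that expresses the gene.

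An *Lpl* UMI was found in a minority of C1q macrophages. It was present in 34.4%, 24.5% (20.2 to 29.1), 19.2% (13.6 to 25.9) and 30% (23.9 to 36.7) of them, and in 9.24 to 16.1% after thinning. In T cells the share was 0.518 to 1.24%, and 0 to 0.276% after thinning. All 4 adipocyte markers (*Adipoq*, *Plin1*, *Cidec*, *Lep*), from a cell type rich in lipoprotein lipase, were at 0 UMIs in C1q macrophages, monocytes and osteoclast-like macrophages. C1q macrophages held 57.1% of the *Lpl* UMIs and the 44 osteoclast-like cells 22.1%.

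*Fabp5* (chr3:10012548-10016607, plus strand) encodes a cytosolic fatty acid binding protein, and reads from it could be shared with the processed pseudogene *Fabp5l2*, so its counts are less certain. C1q macrophages held 1771, 2378, 1642 and 1782 CPM and dendritic cells 858 to 1381 CPM, with no overlap. Monocytes (396, 579, 532 and 580 CPM) and neutrophils (371 to 589 CPM) came next and overlapped each other. T cells held 324, 359, 323 and 175 CPM. A UMI was found in 44.9 to 66.7% of them (15.6 to 28.6% thinned), against 83.8 to 88.9% of C1q macrophages (53.8 to 62.5% thinned). T cells also held the summed keratinocyte list at 470 to 1107 CPM, and whether their *Fabp5* was their own or free RNA was not tested.

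*Plin2* (chr4:86648386-86670060, minus strand) encodes perilipin 2, which coats lipid droplets. Its levels lay close together in C1q macrophages (585, 1141, 1009 and 938 CPM) and monocytes (576, 964, 1010 and 935 CPM), and neutrophils held 243 to 824 CPM. The 3 ranges overlapped, and the C1q to monocyte ratio was 0.999 to 1.18 within libraries. Dendritic cells, T cells and NK cells lay below them, at 120 CPM or less in every library.

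The 2 transporters differed in how far they marked the C1q class. *Abca1* (chr4:53030787-53159895, minus strand), which loads cholesterol onto lipid-poor apolipoproteins, was at 363, 832, 536 and 712 CPM in C1q macrophages, at 104, 231, 170 and 216 CPM in monocytes and at 152 to 242 CPM in neutrophils. C1q macrophages were 3.15 to 3.60 times monocytes in the 4 libraries. *Abcg1* (chr17:31057675-31117988, plus strand), which exports cholesterol to high-density lipoprotein, was at 129, 96.0, 50.9 and 129 CPM in C1q macrophages and 117, 76.1, 34.6 and 87.0 CPM in monocytes, and each class overlapped the next in order, down to T cells at 27.4 to 42.7 CPM. A UMI of *Abcg1* was found in 20.3 to 45.2% of C1q macrophages.

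*Npc2* and *Lipa* act in the lysosome. *Npc2* (chr12:84754562-84773152, minus strand) encodes a small cholesterol binding protein that passes cholesterol to NPC1, and it was higher in monocytes (2269, 1478, 1281 and 1582 CPM) than in C1q macrophages (1649, 1262, 1093 and 1381 CPM) within each library, although the 2 ranges overlapped. Neutrophils were lowest of the 6 classes with sums in all 4 libraries within the gene limit, at 110 to 142 CPM. *Lipa* (chr19:34492318-34527474, minus strand) encodes lysosomal acid lipase, which hydrolyses cholesteryl esters, and was at 173, 252, 353 and 228 CPM in C1q macrophages and 60.1, 129, 239 and 116 CPM in monocytes. The C1q to monocyte ratio was 1.48 to 2.88 for *Lipa* and 0.726 to 0.873 for *Npc2*, so these 2 genes of one pathway lay on opposite sides of 1 in all 4 libraries.

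**Figure D1:**
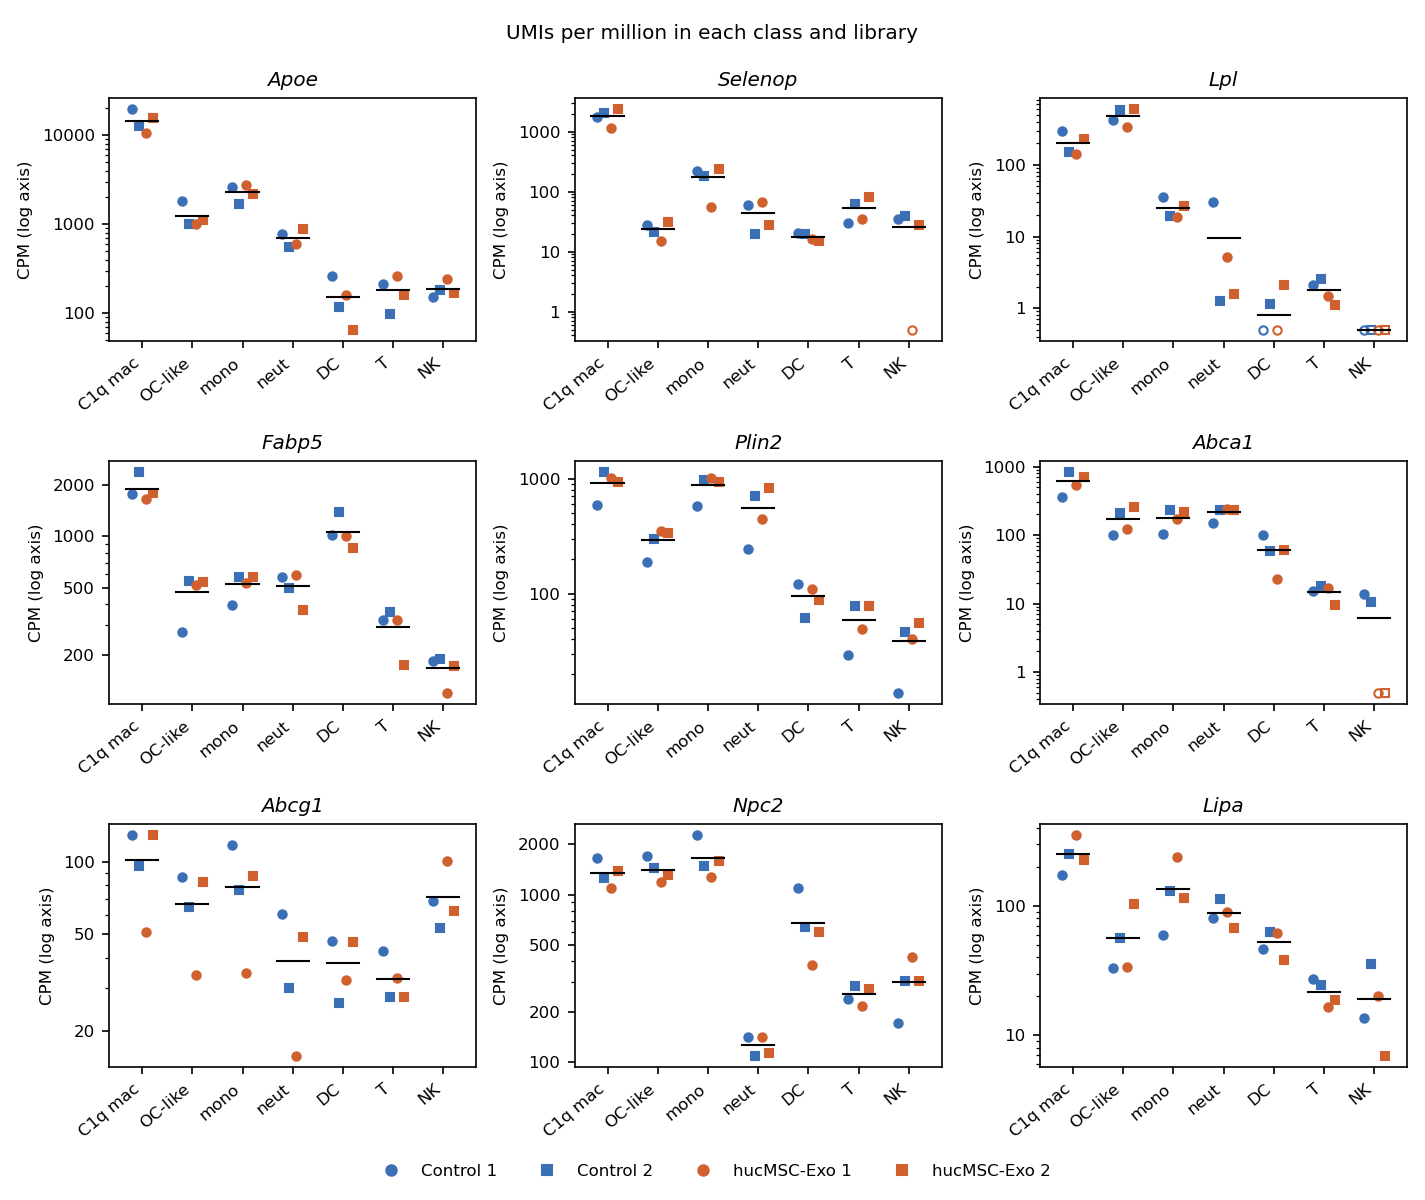
Level of each of the 9 genes (CPM, log axis; axes differ between panels) in each cell class, with 1 point per library (blue control, orange hucMSC-Exo, circle replicate 1, square replicate 2) and a line at the mean of the 4 libraries. Open symbols at 0.5 stand for 0 UMIs, and osteoclast-like cells are shown without the gene limit. *Apoe*, *Selenop* and *Abca1* are highest in C1q macrophages in all 4 libraries, and the *Plin2* ranges of C1q macrophages and monocytes overlap.

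C1q macrophages were then compared with monocytes, using the sums of both classes in each of the 4 libraries and the library as a block (edgeR, Benjamini-Hochberg adjustment over all 7727 genes tested, marker genes left out). Of the genes tested 25.7% passed an adjusted p of 0.05, 13.1% higher and 12.5% lower in C1q macrophages. Of the 9 genes, 6 were higher, 1 was lower and 2 did not pass, and they had a median log2 difference of 1.68, where that of every gene tested was 0.02. The genes had been proposed as macrophage genes with results of these data known, so this count describes them and is no independent support.

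Of the 9, *Selenop* differed most, by 3.38 on the log2 scale (SE 0.16; edgeR adjusted p = 4.44e-11), or 10.4-fold. *Lpl* (2.95 ± 0.18 SE; edgeR adjusted p = 7.64e-10) and *Apoe* (2.57 ± 0.15 SE; edgeR adjusted p = 6.48e-10) followed. *Fabp5* (1.78 ± 0.14 SE) and *Abca1* (1.68 ± 0.14 SE) passed as well. These 5 genes passed in all 13 alternatives run for them.

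The lysosomal genes and the droplet gene differed less. *Lipa* was higher in C1q macrophages by 0.87 on the log2 scale (0.16 SE; edgeR adjusted p = 0.000549) and *Npc2* lower (-0.35, 0.11 SE; edgeR adjusted p = 0.0212). Without the library block neither passed, and with classes taken from clusters neither passed, nor did *Npc2* without Control 2 or without the filter on low counts. *Plin2* (-0.00, 0.12 SE; edgeR adjusted p = 0.983) and *Abcg1* (0.32, 0.16 SE; edgeR adjusted p = 0.145) did not pass, although *Plin2* was lower in C1q macrophages with classes taken from clusters (-0.48).

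The other genes of these pathways came from lists that include several of the 9 and were drawn up, like the 9, with earlier results known. In the list of liver X receptor and cholesterol efflux genes, 6 of 12 were higher and 3 lower. *Pltp*, the phospholipid transfer protein, was 2.74 higher on the log2 scale (0.15 SE), *Nr1h3*, which encodes liver X receptor alpha, 1.88 (0.33 SE), and *Mylip*, a ubiquitin ligase gene induced by the liver X receptors, 1.28 (0.26 SE), whereas *Abca7* was lower (-1.22, 0.31 SE). The median of this list was 0.67.

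Of 12 lysosomal lipid genes 5 were higher and 1, *Npc2*, was lower. The higher ones included *Pla2g15* (1.73), a lysosomal phospholipase, and *Smpd1* (1.70), acid sphingomyelinase, which was at 0 to 11.5 CPM in both classes. *Npc1*, the partner of NPC2, did not pass (0.40). Of 9 fatty acid genes tested 3 were higher, and the fatty acid receptor gene *Cd36* did not pass (0.26), with 40.8 to 140 CPM in C1q macrophages and 35.5 to 144 in monocytes. Of 9 lipid droplet genes tested 1 was higher (*Abhd5*, 1.00) and 1 lower (*Dgat2*, -1.53), and *Soat1*, which esterifies cholesterol, did not pass (-0.00). Of the 12 lipid-associated macrophage genes, 9 were higher and 1 lower, among them *Trem2* (2.37), a lipid-sensing receptor, and *Cd63* (2.44). The calls of *Dgat2*, *Abhd5* and *Smpd1* were each lost with 1 library left out, Control 2 or hucMSC-Exo 2 for all 3 and hucMSC-Exo 1 for the last 2, with values of -1.02 to -1.99, 0.78 to 1.36 and 1.42 to 2.12.

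For the selenoproteins the counts were near those of all genes (13.1% higher, 12.5% lower). Of 17 tested 2 were higher (*Selenop* and *Selenof*, 0.84) and 2 lower (*Msrb1*, -0.90, a methionine sulfoxide reductase, and *Selenok*, -0.35, a call that was lost whichever library was left out, at -0.33 to -0.44), with a median of 0.01. *Gpx1* (0.10), *Gpx4* (-0.07) and *Selenow* (0.14), whose selenocysteine sites are shown above, did not pass. Of the genes that build selenocysteine or take up selenoprotein P, 4 of 9 were tested and none passed an adjusted p of 0.05.

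Osteoclast-like macrophages, named for genes of the bone-resorbing osteoclast, differed from C1q macrophages in these genes in both directions. Without the gene limit this class held 11, 104, 55 and 15 cells with a median of 23027 UMIs, against 7714 in C1q macrophages counted the same way. Its own markers summed to 6822 to 15533 CPM, while the C1q list summed to 30.6 to 516 CPM with *Cd163* at 0, the monocyte list to 2.78 to 325 CPM and the adipocyte list to 0. With the limit, only Control 2 (19 cells) and hucMSC-Exo 1 (15 cells) had enough cells for a sum. There the class held the C1q list at 1735 and 500.0 CPM against 6160 and 10280 CPM of its own markers, and 13 of the 44 cells lay near the gate. No cluster was named for this class. Of the 44 cells, 27 lay in cluster 5 and 10 in cluster 2, which held 308 and 265 C1q macrophages. With the cells of the highest doublet scores left out, an alternative added after seeing the data and run with the limit, *Lpl*, *Selenop* and *Apoe* kept their calls. Cells over the limit were given no doublet score, so the values without the limit had no such check.

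*Lpl* was the gene of the 9 that was higher there. Without the limit it was at 420, 584, 340 and 603 CPM, above the 138 to 313 CPM of C1q macrophages in every library by 1.34, 3.94, 2.47 and 2.20 times. In hucMSC-Exo 2, 43.6% of the *Lpl* UMIs came from 1 of the 15 cells. A UMI was found in 87.3 to 100% of the cells of the first 3 libraries and in 46.7% (21.3 to 73.4) in hucMSC-Exo 2, and in 18.2 to 39.4% after thinning.

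*Selenop* and *Apoe* were at the other extreme. Without the limit *Selenop* was at 27.8, 21.6, 14.9 and 30.9 CPM, from 10, 53, 18 and 6 UMIs. These values were 74.2 to 92.0 times below C1q macrophages and below the lowest value of T cells without the limit, 31.7 CPM. With the limit, *Selenop* in Control 2 was at 99.2 CPM, from 16 UMIs, above T cells at 30.1 to 81.4 CPM. In hucMSC-Exo 1 it lay below that T cell range. *Apoe* without the limit was at 1825, 1018, 1015 and 1124 CPM, 10.1 to 13.4 times below C1q macrophages. In Control 1, 56.7% of the *Apoe* UMIs of the class came from 1 cell. All 4 libraries gave the same order for each of the 3 genes, and the ranges of *Lpl*, *Selenop* and *Apoe* did not overlap between the 2 macrophage classes.

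Over 8764 genes tested without the limit 39.7% passed (17.7% higher, 22.0% lower), so a call is common here. *Lpl* lay higher by 1.02 on the log2 scale (0.23 SE; edgeR adjusted p = 0.00743), and 7 of the 9 were lower, from *Abcg1* (-0.85, 0.16 SE) to *Apoe* (-3.73, 0.09 SE) and *Selenop* (-6.54, 0.15 SE; edgeR adjusted p = 5.27e-08). *Npc2* did not pass (-0.09, 0.10 SE; edgeR adjusted p = 0.516). With each library left out in turn *Lpl* stayed between 0.78 and 1.34, with an edgeR adjusted p of at most 0.046.

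With the limit the fit rests on 2 libraries, and 4.38% of 5588 genes passed (1.59% higher, 2.79% lower). *Lpl* (2.86 ± 0.46 SE), *Apoe* (-2.54 ± 0.55 SE) and *Selenop* (-4.86 ± 0.48 SE) passed in the same directions, and the other 6 did not. *Lpl* was at 2200 CPM in Control 2 and 473 CPM in hucMSC-Exo 1, where 56.3% of its UMIs came from 1 cell. The size of its difference was thus larger with the limit than without it. *Fabp5* with the limit was at 3588 CPM in Control 2, above C1q macrophages at 2378 CPM, and at 653 CPM in hucMSC-Exo 1. In Control 2, 32.3% of these *Fabp5* UMIs came from 1 cell. Without the limit *Fabp5* was at 275 to 547 CPM. *Plin2* was at 861 CPM in Control 2 and 447 CPM in hucMSC-Exo 1 with the limit, and at 186 to 350 CPM without it.

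Against monocytes the order of *Lpl* was the same. Without the limit *Lpl* was 11.8 to 24.2 times monocytes in the 4 libraries, 4.06 on the log2 scale (0.23 SE; edgeR adjusted p = 7.97e-06), where 45.0% of 7309 genes passed (21.9% higher, 23.1% lower). *Apoe* (-1.11), *Selenop* (-2.96), *Plin2* (-1.78), *Npc2* (-0.42) and *Lipa* (-1.59) were lower, and *Npc2* and *Lipa* no longer passed when 1 library was left out (largest edgeR adjusted p 0.085 and 0.052). With the limit, where 1.39% of 3304 genes passed (0.757% higher, 0.636% lower), *Lpl* was the 1 of the 9 that did (edgeR adjusted p = 0.0360). The 3 class comparisons share their sums, so their values are set side by side and not read as separate support.

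**Figure D2:**
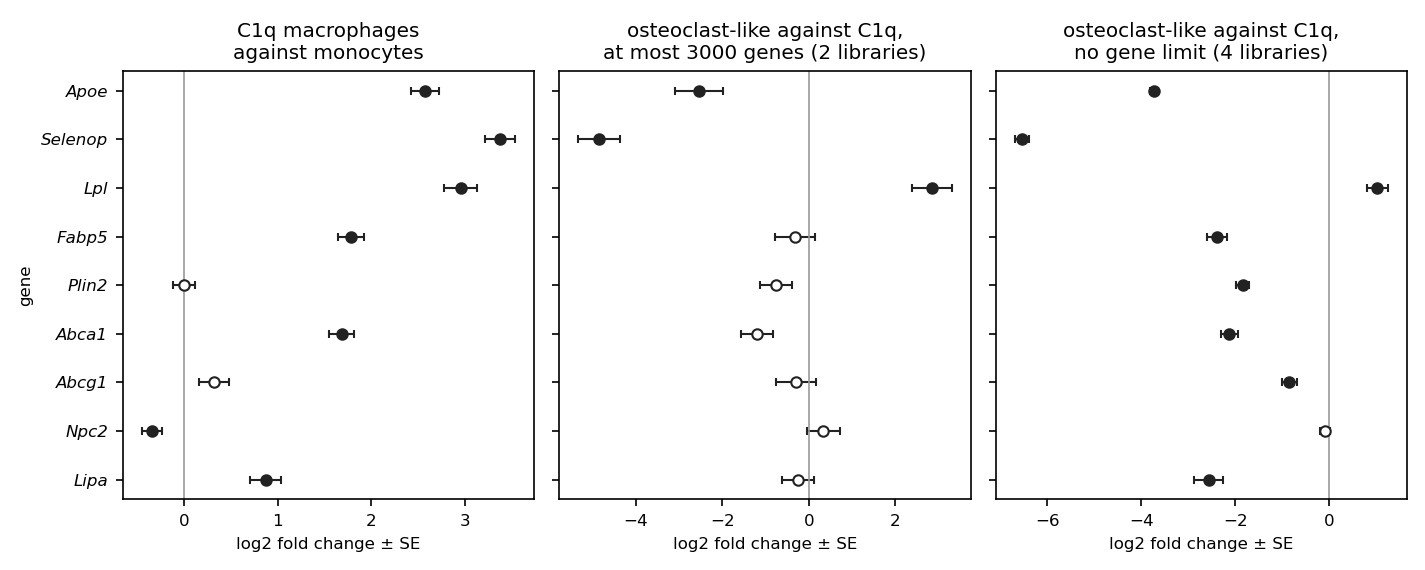
Log2 fold change (± standard error, edgeR) of the 9 genes for C1q macrophages against monocytes, osteoclast-like against C1q macrophages with at most 3000 genes (2 libraries), and the same without the gene limit (4 libraries); filled points have an adjusted p under 0.05. *Lpl* lies above 0 and *Apoe* and *Selenop* below 0 in both osteoclast-like panels.

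In the cholesterol efflux list, which includes some of the 9, none of 12 genes was higher and 8 were lower in osteoclast-like than in C1q macrophages without the limit, where 22.0% of all genes were lower, and with the limit 1 of 10 was lower. The lower ones without the limit included *Nr1h3* (-3.06) and *Mylip* (-3.97). Of 10 fatty acid genes 8 were lower, among them *Fabp4* (-5.93), *Cd36* (-3.45) and *Pparg* (-3.41), and the 1 that was higher was *Lpl*. Without the limit osteoclast-like macrophages held *Fabp4* at only 0 to 5.16 CPM. They held *Cd36* at 0, 6.91, 6.64 and 61.9 CPM and *Pparg* at 0, 0, 0.83 and 20.6 CPM. In hucMSC-Exo 2 these 2 genes were thus not below C1q macrophages, which held 61.3 and 19.2 CPM with the limit. Of 19 selenoproteins 3 were higher, *Gpx1* (0.92), *Gpx4* (0.53) and *Selenoh* (0.95), and 5 lower, shares near those of all genes (17.7% and 22.0%), including *Selenop*, *Selenow* (-1.24) and *Selenok* (-1.09). *Gpx1* was at 1403 to 1672 CPM in osteoclast-like macrophages without the limit and at 594 to 764 CPM in C1q macrophages with the limit. These ranges did not overlap but come from cells under unlike limits. In the fit without the limit, the glutathione peroxidase and *Selenop* lay in opposite directions.

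**Figure D3:**
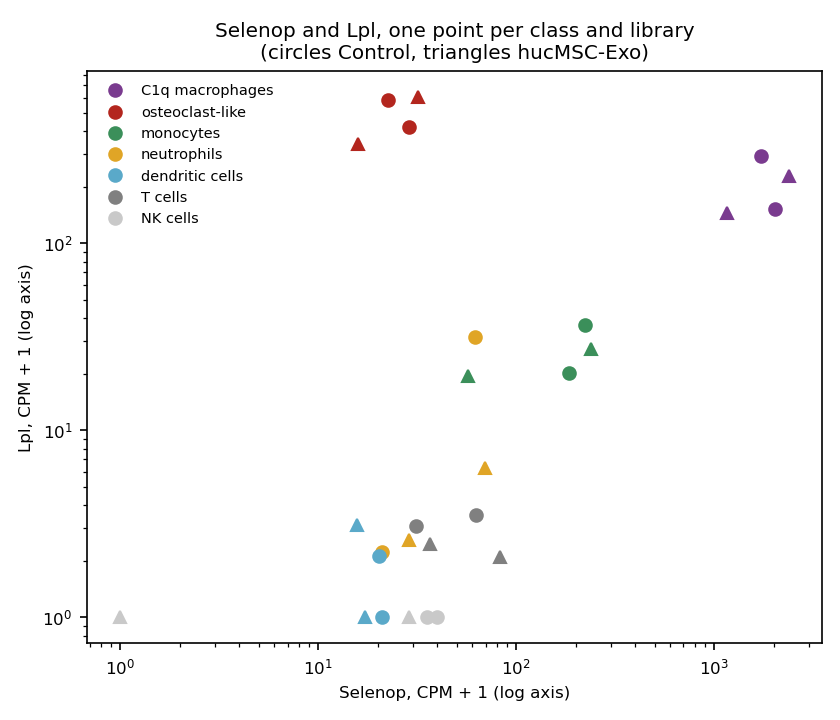
*Selenop* against *Lpl* (CPM + 1, log axes), with 1 point per cell class and library (circles, control; triangles, hucMSC-Exo; osteoclast-like cells without the gene limit). C1q macrophages are high in both genes, and the 4 osteoclast-like sums combine the highest *Lpl*, 340 to 603 CPM, with *Selenop* at 14.9 to 30.9 CPM.

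Within the C1q class the genes were not evenly spread. Cells of the class fell mainly into 3 clusters, number 2 (265 cells; led by *Mmp19*, *Spic*, *Hmox1*), number 5 (308 cells; *Pf4*, *Spp1*, *Gpnmb*, *Arg1*, *Trem2*) and number 11 (243 cells; *Ccl8*, *Igf1*, *C1qb*). The clusters were built on the 2000 most variable genes, and *Lpl* is among the leading 10 genes of cluster 5 and *Selenop* of cluster 11, so these values are a description with no test. Cluster 5 has 1 osteoclast-like marker, *Acp5*, and no C1q marker among its leading 10 genes and was given no name. It also held 27 of the 44 osteoclast-like cells counted with the gene limit. A further 94 C1q macrophages were in cluster 14, whose cells had a median of 1046 UMIs, and *Lpl* there ranged from 35.4 to 1065 CPM.

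Of the 3 main clusters, number 11 held the most *Selenop*, at 2145, 3322, 2831 and 3295 CPM in the 4 libraries, and the most *Lpl*, at 299, 322, 788 and 395 CPM. Cluster 2 held the least of both, with *Selenop* at 759, 1023, 464 and 757 CPM and *Lpl* at 15.5 to 68.3 CPM. For these 2 genes the ranges of clusters 2 and 11 did not overlap. *Apoe* was likewise lowest in cluster 2, at 5586 to 9374 CPM, against 14431 to 20277 CPM in cluster 11. The *Lpl* value of cluster 11 in hucMSC-Exo 1 rests on 28 cells. Over all 172 C1q macrophages of that library, 1 cell held 19.5% of the 164 *Lpl* UMIs.

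*Fabp5* and *Abca1* had another pattern. *Fabp5* was highest in cluster 5 in 3 of the 4 libraries (2895, 3703, 2385 and 3015 CPM), the exception being hucMSC-Exo 1, where cluster 11 held 2700 CPM. *Abca1* was lowest in cluster 11 (260, 332, 251 and 374 CPM) and reached 465 to 1170 CPM in cluster 5, while *Apoe* was lowest in cluster 2, so these 2 genes of cholesterol efflux were ordered differently over the clusters. Across single C1q macrophages the rank correlation of *Apoe* with *Selenop* was 0.54 to 0.60 in the 4 libraries, each over the 157 to 380 cells of a library, which share their depth and cluster.

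The makeup of the class varied between libraries. Cluster 11 held 54.8%, 15.5%, 16.3% and 33.3% of C1q macrophages, cluster 2 held 10.2%, 31.3%, 51.7% and 19.5%, and cluster 5 held 17.2%, 42.9%, 21.5% and 38.6%. Most C1q macrophages of Control 1 were in cluster 11, and most of hucMSC-Exo 1, the library with the lowest *Selenop* in the class, were in cluster 2. The shares did not order the class levels of all libraries, since *Selenop* in Control 1 (1730 CPM) was below that in Control 2 (2035 CPM), and their part in the comparison of the groups was not tested.

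**Figure D4:**
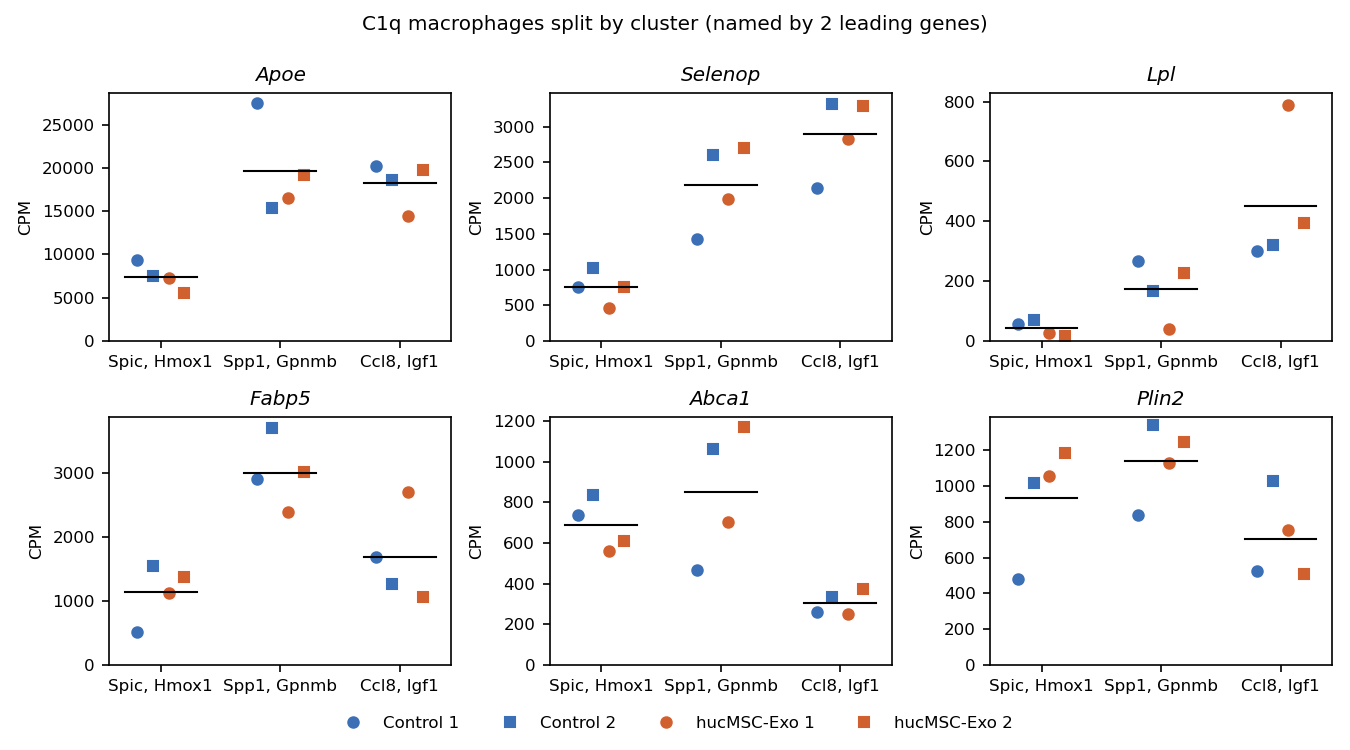
Level (CPM, linear axis from 0) of *Apoe*, *Selenop*, *Lpl*, *Fabp5*, *Abca1* and *Plin2* in C1q macrophages of clusters 2, 5 and 11, with 1 point per library and a line at the mean of the 4 libraries. *Selenop* and *Lpl* are lowest in cluster 2, and *Abca1* is lowest in cluster 11.

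The study compared the groups to see how hucMSC-Exosomes act on the cells of a healing wound. For the 9 genes no difference of the hucMSC-Exosomes group from the control group passed in any class tested. In C1q macrophages 0.0% of 7391 genes passed with edgeR (84 had an unadjusted p under 0.05, and DESeq2 called 0), so the count of 0 of 9 is that of the background. For hucMSC-Exo relative to Control, the log2 fold change was -0.31 (0.32 SE) for *Apoe*, -0.10 (0.35 SE) for *Selenop*, -0.26 (0.40 SE) for *Lpl* and, furthest from 0, 0.48 (0.37 SE) for *Lipa*, with an edgeR adjusted p of 1.0 for each of the 9. For each of the 9 genes the CPM of the groups overlapped, where 22.3% of genes with 15 or more UMIs did not.

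The standard errors were 0.30 to 0.40 for the 9 genes. The means were 16098 ± 5014 CPM (SD, n = 2) in the control group and 13062 ± 3611 CPM (SD, n = 2) in the hucMSC-Exosomes group for *Apoe*, 1883 ± 216 and 1768 ± 861 CPM for *Selenop*, and 222 ± 101 and 186 ± 59.1 CPM for *Lpl*. The p-values measure only the spread between these 4 mice.

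Monocytes gave 0.0% of 5762 genes (102 with an unadjusted p under 0.05, DESeq2 0), with *Lipa* furthest from 0 at 0.97 (0.48 SE, edgeR unadjusted p = 0.082) and *Abcg1* at -0.43 (0.44 SE). *Lipa* was at 60.1 and 129 CPM in the control group and 239 and 116 CPM in the hucMSC-Exosomes group, so hucMSC-Exo 1 was highest and the others overlapped. In neutrophils and T cells 0.0% of 4185 and 10185 genes passed (87 and 275 with an unadjusted p under 0.05, DESeq2 0 and 0), and in dendritic cells 0.0252% of 3968 genes, that is 1 gene and none of the 9 (111 with an unadjusted p under 0.05, DESeq2 0). The groups overlapped for all 9 genes in monocytes and for the 8 with enough UMIs in neutrophils, where 32.3% and 29.2% of genes did not overlap. They did not overlap for *Selenop*, *Fabp5* and *Npc2* in dendritic cells, 3 of the 8 with enough UMIs, where 29.8% of genes did not, and for *Lpl*, *Fabp5* and *Lipa* in T cells, 3 of 9, where 32.0% did not. The *Npc2* difference in dendritic cells was -0.81 (0.33 SE; edgeR adjusted p = 0.998), and *Selenop* and *Lpl* did not pass the low-count filter of the fit there within the gene limit.

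For osteoclast-like macrophages the groups could be compared only without the gene limit, since each group had 1 library with enough cells otherwise. None of 6487 genes passed (0.0%; 102 with an unadjusted p under 0.05), and *Lpl* was at 420 and 584 CPM in the control group and 340 and 603 CPM in the hucMSC-Exosomes group (log2 fold change -0.05, 0.35 SE). The difference of the group effect between osteoclast-like and C1q macrophages was tested as an interaction, and 0.0% of 8764 genes passed (149 with an unadjusted p under 0.05). *Fabp5* was furthest from 0 among the 9 (0.93, 0.31 SE; edgeR adjusted p = 1.0).

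**Figure D5:**
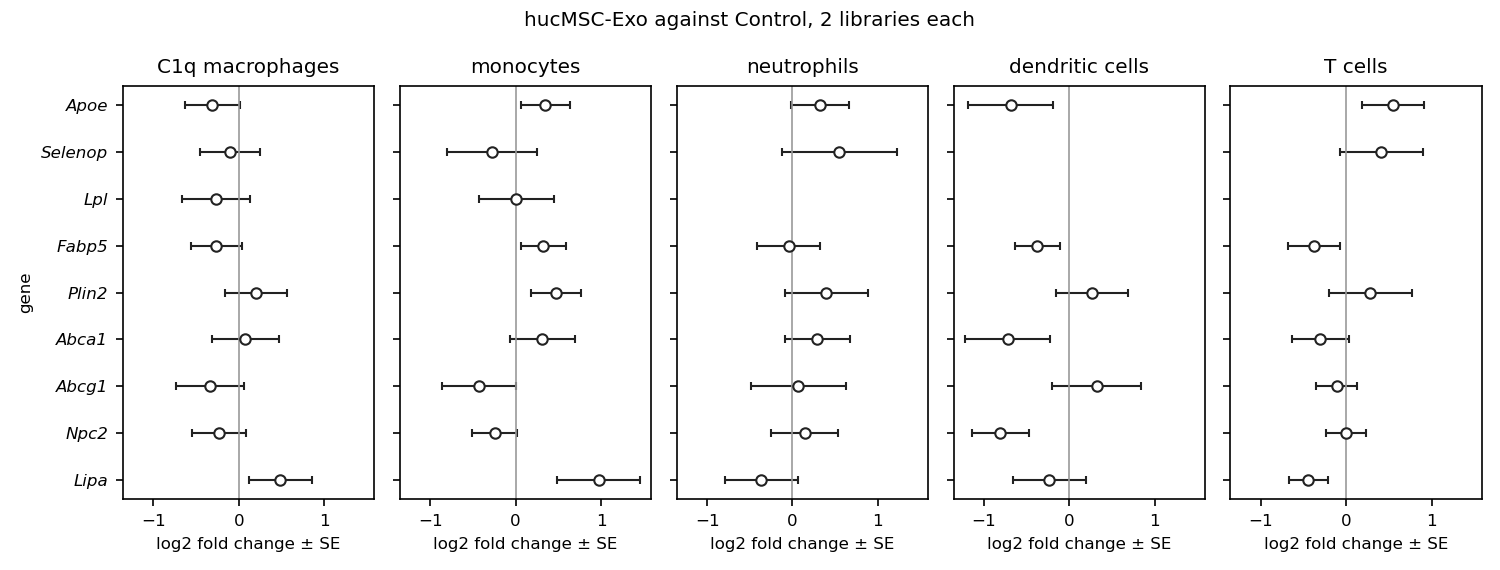
Log2 fold change (± standard error, edgeR) of the 9 genes, hucMSC-Exo relative to Control, in 5 classes. All points are open because none had an adjusted p under 0.05, and a missing point means that the gene was not tested. The C1q macrophage values lie between -0.33 and 0.48.

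For each of the 9 genes the others most like it were taken as those with the highest Pearson correlation of log2(CPM + 10) over 23 sums of 7 classes in the 4 libraries, among 4967 genes. The sums are those of 20 or more cells within the gene limit, which leaves out the osteoclast-like class, where *Lpl* was highest, and they share libraries and classes. *Apoe* was most like *Trem2* (r = 0.94), *Sash1* and *Ctsb*, *Selenop* most like *Ms4a7* (0.93), *Prxl2b* and *C1qc*, and *Lpl* most like *Pf4* (0.96), *Trem2* and *Stab1*. *Npc2* went with *Slamf7* (0.96) and *Ms4a6c*, *Plin2* with *Sat1* (0.97), *Abca1* with *Sgpl1* (0.97) and *Atp6v1b2*, *Fabp5* with *Sgk1* (0.93), *Lipa* with *Ctsb* (0.92), and *Abcg1* with *Rrbp1* at a lower 0.85. *C1qc* and *Ms4a7* are also markers of the C1q gate. *Trem2* was thus among the 3 nearest genes of both *Apoe* and *Lpl*, and *Ctsb* of both *Apoe* and *Lipa*.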

How the data were processed

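The authors sequenced 10x Chromium 3′ libraries of 4 mice and made the deposited UMI counts per gene and cell with Cell Ranger 6.1.2 on mm10, as their methods and processing notes state; the count matrices are filtered and not normalized. Cells within the limits of 200 to 3000 genes and a mitochondrial share up to 10% were used, and cells were classed by marker genes. The share of UMIs required of a class (0.2% for macrophages and monocytes) was set after seeing the data, and 784 cells stayed unassigned. The 9 genes, the lists and the markers were chosen with earlier results of these data known. Other genes are named as those of each list that passed with the largest differences, up to 4 a list, plus 8 named whatever their value.

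Counts were summed per library and class (at least 10 cells) and tested with edgeR 4.0.16 (TMM, filterByExpr, quasi-likelihood, Benjamini-Hochberg 0.05), with the library as a block between classes. The standard errors beside edgeR values were derived from its test, as the absolute log2 fold change over the square root of the F statistic. They are approximate. DESeq2 1.42.0 was an alternative. Clusters came from scanpy 1.11.5 (Leiden, resolution 1). The scripts were tested on simulated data. Kept cells held 4779405 to 11243740 UMIs per library. Nothing states that same-numbered replicates were paired. Results of some listed genes are not reported here.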

Additional observations from a re-analysis of the deposited data

How the results depend on the processing

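Between the groups, no alternative called any of the 9 genes, in 0 of 626 fits. Of 251 values of that comparison in C1q macrophages and monocytes 231 kept direction and side of the threshold, and 20 changed sign without passing it. Of 577 values of the class comparisons, 494 kept both, 46 no longer passed, 14 newly passed and 23 changed sign. The causes were not tested, apart from the fewer genes or libraries that an alternative itself brings.

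Counts of genes called between the groups rose without the filter on low counts to 23 in C1q macrophages, 38 in monocytes, 35 in dendritic cells, 6 in neutrophils and 49 in T cells. With 1 library left out they were 1 to 107, 0 to 25, 2 to 71, 1 to 41 and 0 to 292, the highest without Control 2 except in dendritic cells, where it was without hucMSC-Exo 2; the lone library of a group was then assumed to vary like the others. In dendritic cells the count was 0 with DESeq2, library size only, no gene limit, cluster classes or a stricter gate. The correlation of same-numbered deviations was -0.246 in C1q macrophages, -0.138 in monocytes and 0.127, -0.0337 and 0.204 in dendritic cells, neutrophils and T cells. These mixed signs cannot decide whether replicate numbers paired the mice. With the replicate block the counts were 0, 0, 2, 4 and 0, and with the crossed pairing, added after seeing the data, 5, 8, 16, 11 and 0.

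For C1q macrophages against monocytes the counts were 1188 with DESeq2, 948 without the library block, 1005 with cluster classes and 1160 to 1958 with 1 library left out (1160 without Control 2 and 1171 without hucMSC-Exo 2). For osteoclast-like against C1q macrophages they were 63 with DESeq2, 404 with library size only, 125 without the block, 3477 without the gene limit and 420 without the highest doublet scores, and *Apoe* (-2.48) no longer passed without the block. Against monocytes they were 71, 192, 209, 3288 and 151 in the same order, and 486 without the filter.

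Sign changes between the groups, as ranges with 1 library left out, were in C1q macrophages -0.61 to 0.083 for *Apoe*, -0.59 to 0.26 for *Selenop*, -0.68 to 0.33 for *Lpl*, -0.18 to 0.74 for *Plin2*, -0.38 to 0.77 for *Abca1*, -1.03 to 0.12 for *Abcg1* and -0.43 to 0.0043 for *Npc2*, and in monocytes -1.66 to 0.34 for *Selenop*, -0.45 to 0.41 for *Lpl*, -0.12 to 1.05 for *Abca1* and -0.51 to 0.090 for *Npc2*. Without the gene limit *Apoe* in neutrophils went from 0.32 to -2.01 (51.5% of the Control 1 UMIs in 1 cell), *Fabp5* in neutrophils from -0.046 to 0.010 and *Abcg1* in dendritic cells from 0.32 to -0.018. *Abca1* in C1q macrophages was -0.0090 without the gene limit and -0.082 with cluster classes. In monocytes *Lpl* was -0.075 with DESeq2, -0.11 with library size only, -0.14 with the crossed pairing and -0.20 without the gene limit, and *Fabp5* -0.045 with cluster classes.

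Sign changes between classes were, for osteoclast-like against C1q macrophages, *Fabp5* 0.043 without the block and *Npc2* -0.093 without the gene limit. For C1q macrophages against monocytes, *Plin2* was 0.069 with library size only, 0.0016 without the filter and 0.0012 without Scrublet doublets, and -0.097 to 0.035 with 1 library left out. *Soat1* was 0.075 with library size only, 0.0012 without the filter and 0.069 without the gene limit, and -0.11 to 0.13 with 1 library left out, as *Gpx4* was -0.19 to 0.044 and *Selenow* -0.0028 to 0.27, and with cluster classes *Cd36* was -0.18 and *Gpx1* -0.10. For osteoclast-like macrophages against monocytes without the gene limit, *Fabp5* was -0.36, *Abca1* -0.31, *Abcg1* -0.40, *Npc2* -0.42 and *Lipa* -1.59, *Abcg1* being -0.20 without the filter and -0.024 without the block, and *Npc2* -0.18 without the filter.

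Thinning lowered the share of C1q macrophages with a UMI for all 9 genes. Library size scaling moved the median of all genes by -0.13 between the groups in monocytes and -0.10 in T cells. With the gene limit, no osteoclast-like value could be had between the groups, with Control 2 or hucMSC-Exo 1 left out, with cluster classes or with the stricter gate, so these alternatives were not run.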

Other observations

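Mast cells reached the minimum of 10 cells in 2 libraries, with 25 cells in all, and held *Apoe* at 1579 and 2190 CPM.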
